A study of Rattus norvegicus with 743 samples.

Results

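The genes described here are 33 cell cycle genes used to read proliferation in liver. They were chosen by name for their known place in the cycle. Of the 33, 32 were found by symbol among the 32893 rows of the deposited table with Ensembl identifiers, and Ccnb2 was found only in the deposited table of RefSeq genes. They fall into 3 G1 cyclins (Ccnd1, Ccne1, Ccne2), 10 genes of DNA synthesis, called S-phase genes here, and 20 genes of mitosis, called mitotic genes.

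Liver RNA came from rats given a drug, a toxicant or the vehicle alone. The 743 libraries came from 680 animals. Han Wistar rats gave 414 of the libraries, Sprague Dawley rats 329, and males 726. A treated group was always set against vehicle animals from its own study, labelled batch and vehicle, and this made 97 comparisons (53 Han Wistar, 44 Sprague Dawley). In 89 of them dosing lasted 4 days, and over all it lasted 3 to 17 days. Groups held 2 to 6 treated and 3 to 5 vehicle animals, and 77 of the treated groups held 4. The comparisons are not all independent, since 31 of them share 15 vehicle groups. Beyond these, some vehicle rats were sequenced in different batches and stand in a vehicle group of each. Those of cimetidine and propranolol are an example. Library totals ran from 0.312 to 45.5 M counts (M, mega) with a median of 18.19 M. Outside the study of PCN, whose libraries held 0.312 to 10 M counts, the lowest total was 11.2 M.

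A cell that leaves rest makes cyclin D1 and then the E cyclins, which switch on the genes of DNA synthesis. The MCM proteins form the helicase that opens DNA at replication origins, PCNA clamps the polymerase to it, and Tk1, Tyms and Rrm2 make the nucleotides. Cyclins A and B with Cdk1 then drive the cell into mitosis, where the Aurora and Polo kinases, the spindle motors and the checkpoint proteins divide the chromosomes. Adult hepatocytes rarely divide but can re-enter the cycle after injury or in answer to inducers of liver growth. In many cell types the S-phase genes are controlled by E2F factors and the mitotic genes by a later programme with MYBL2 and FOXM1. In whole liver RNA, fewer cycling cells and less RNA per cycling cell cannot be told apart.

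The upstream sequences of the S-phase and mitotic genes with most calls are shown because the 2 classes are set beside each other throughout. RefSeq sequences of the GRCr8 build were on hand for 25 of the 33 genes. No entry was found for Ccnd1, Ube2c, Mcm4, Rrm2, Aurkb, Ccna2, Tpx2 and Ccne2. Each sequence is the 250 bases before the annotated start, 5′ to 3′ on the gene's strand. Tk1 lies at chr10:103544778-103545027 on the minus strand, Mcm2 at chr4:122918095-122918344 on the minus strand and Mcm5 at chr19:13488563-13488812 on the plus strand. Kif11 lies at chr1:244536617-244536866 on the plus strand and Top2a at chr10:84473094-84473343 on the minus strand. Capitals mark the CHR element (TTTGAA), the CCAAT box and E2F-type letters (TTTCCCGC, TTTGGCGC, TTTGCCGC or TTTCGCGC), each searched on both strands.
Tk1: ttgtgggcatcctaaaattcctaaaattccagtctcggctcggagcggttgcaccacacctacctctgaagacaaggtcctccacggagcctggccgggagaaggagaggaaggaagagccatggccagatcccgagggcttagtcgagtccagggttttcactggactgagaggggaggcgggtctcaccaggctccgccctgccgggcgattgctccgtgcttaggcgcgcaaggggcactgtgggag
Mcm2: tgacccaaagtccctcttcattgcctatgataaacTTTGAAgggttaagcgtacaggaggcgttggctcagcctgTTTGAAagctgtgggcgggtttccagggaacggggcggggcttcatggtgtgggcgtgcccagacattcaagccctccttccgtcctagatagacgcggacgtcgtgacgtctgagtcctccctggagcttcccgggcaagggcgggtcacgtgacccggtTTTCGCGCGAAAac
Mcm5: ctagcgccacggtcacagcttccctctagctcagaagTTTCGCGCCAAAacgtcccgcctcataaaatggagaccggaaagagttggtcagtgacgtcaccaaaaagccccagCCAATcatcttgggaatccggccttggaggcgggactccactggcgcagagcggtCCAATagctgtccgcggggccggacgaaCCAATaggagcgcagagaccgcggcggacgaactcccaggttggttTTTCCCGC
Kif11: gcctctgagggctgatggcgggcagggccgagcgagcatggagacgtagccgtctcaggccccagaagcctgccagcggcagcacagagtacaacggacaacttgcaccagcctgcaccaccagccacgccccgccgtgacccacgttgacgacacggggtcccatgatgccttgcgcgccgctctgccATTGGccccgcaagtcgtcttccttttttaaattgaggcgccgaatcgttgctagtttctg
Top2a: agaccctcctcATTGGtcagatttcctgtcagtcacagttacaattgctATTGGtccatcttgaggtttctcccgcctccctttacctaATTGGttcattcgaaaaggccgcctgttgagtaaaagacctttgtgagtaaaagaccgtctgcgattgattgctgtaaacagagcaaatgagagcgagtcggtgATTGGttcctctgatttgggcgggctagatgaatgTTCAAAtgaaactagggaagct
In Mcm2 an E2F match begins at base -14 and overlaps its reverse complement at -10, and a pair of overlapping matches begins at -213 in Mcm5. The Tk1 sequence holds none of these letters. Over all 27457 promoters of this length in the table, 16% held the CHR element, 34.3% a CCAAT box and 1.81% an E2F-type match. Of the 16 mitotic genes with an entry, 8 held the CHR element, 13 a CCAAT box and 1, Cdk1, an E2F-type match. Of the 8 S-phase genes with an entry, 1, Mcm2, held the CHR element, 5 a CCAAT box and 5 an E2F-type match. A match describes letters and is not evidence of binding.

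In vehicle livers these genes were low. Levels per length were read from the deposited FPKM values of 1 library in each of the 83 vehicle groups. Pcna, the polymerase clamp, was highest with a median of 11.4 FPKM (range 4.26 to 17), followed by Ccnd1, cyclin D1, at 8.04 FPKM (range 1 to 32.6). The helicase subunit Mcm7 had a median of 4.2 FPKM and the thymidine kinase Tk1 2.96 FPKM. The proliferation antigen Mki67 had a median of 0.449 FPKM, topoisomerase Top2a 0.525 FPKM and Mcm5 0.242 FPKM. The checkpoint kinase Bub1b was lowest at 0.102 FPKM. The ranges of neighbours in this order overlapped.

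The calls of the S-phase and the mitotic genes differed in direction. A gene was called when its adjusted p was under 0.05 in edgeR's quasi-likelihood test, adjusted over all genes of the comparison, and "rose" and "fell" are used only of such calls. Over the 97 comparisons, 880 S-phase tests gave 116 increases (13.2%) and 4 decreases (0.455%). Of these increases 33 were of the single gene Tk1. Over all genes and comparisons together, 4.97% of tests were increases and 4.55% decreases. The 1668 mitotic tests gave 95 increases (5.7%) and 98 decreases (5.88%). The 280 tests of G1 cyclins gave 19 increases (6.79%) and 17 decreases (6.07%). The median log2 fold change over these tests was 0.12 for the S-phase genes, -0.06 for the mitotic genes and -0.05 for the G1 cyclins. At least 1 gene was called in 54 comparisons and none in 43.

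**Figure D1:**
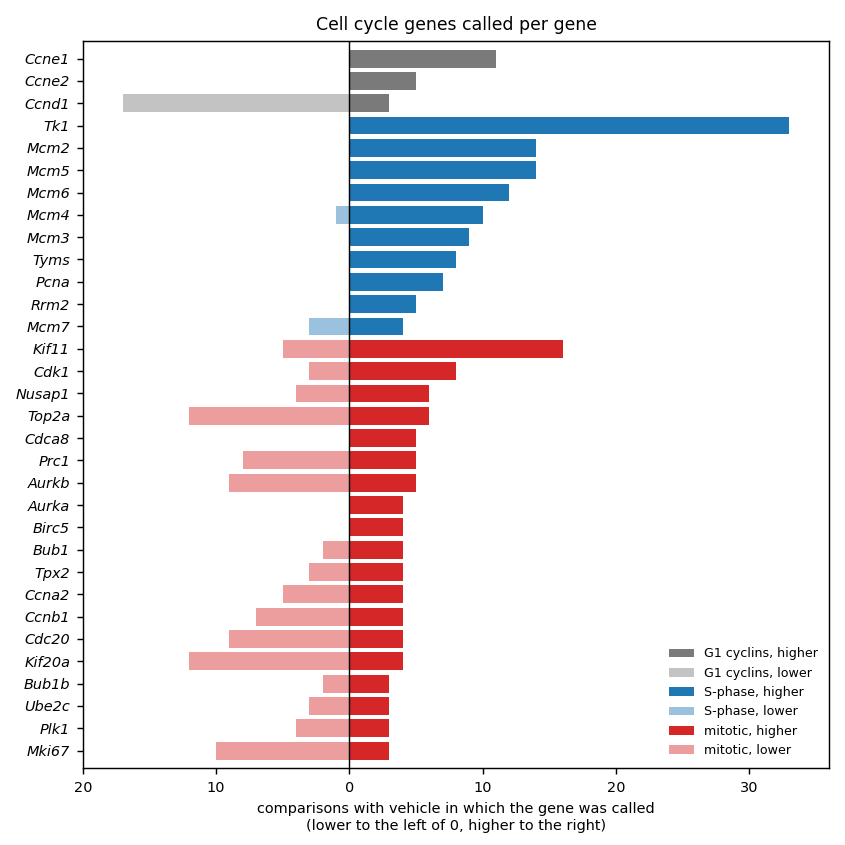
For each of the 32 genes of the Ensembl table, the bar to the right of 0 counts the comparisons of 97 in which it rose and the bar to the left those in which it fell (grey, G1 cyclins; blue, S-phase; red, mitotic). Tk1 reaches 33 to the right, and Ccnd1 (17), Top2a (12) and Kif20a (12) reach farthest to the left.

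Among the G1 cyclins, Ccnd1 fell in 17 comparisons and rose in 3, and its fold change was below 0 in 72 of 97. Its largest fall was with sudoxicam, a withdrawn anti-inflammatory drug. The 3 treated Sprague Dawley rats had 1.85, 3.23 and 2.09 CPM and the 4 vehicle rats 51, 48.3, 14.4 and 37.5 CPM (read counts as a rate per library size, scaled within the comparison). All treated rats lay under all vehicle rats. The log2 fold change was -3.99 ± 0.49 (SE; edgeR adjusted p = 0.000814). Ccnd1 was the only gene of the set that fell with sudoxicam, and 10 of 31 rose. Of all 12830 genes 2289 fell and 2389 rose there. Ccne1 and Ccne2, the E cyclins that partner Cdk2 at the start of DNA synthesis, rose in 11 and 5 comparisons. Neither was called lower, with 3 and 1 decreases at an unadjusted p under 0.05 in edgeR and 0 each with DESeq2. The largest rise of Ccne2 was with pyrazole, 3.33 ± 0.45 on the log2 scale (edgeR adjusted p = 0.00462).

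Among the S-phase genes, Tk1, the salvage kinase that makes thymidine monophosphate, rose in 33 of 96 comparisons and fell in none. At an unadjusted p under 0.05 in edgeR it was lower in 2, and DESeq2 called it lower in 1. Its 33 rises had a median log2 fold change of 1.47. The largest was with almorexant, an orexin receptor antagonist, given to female Sprague Dawley rats at 750 mg/kg for 7 days. The treated rats had 100, 47.3, 113 and 54.6 CPM and the vehicle rats 4.64, 4.11, 8.65 and 5.97 CPM, so every treated rat stood far above every vehicle rat. The log2 fold change of Tk1 was 3.75 ± 0.37 (edgeR adjusted p = 0.00042). With almorexant 7 of 29 genes rose against 18.5% of all genes, 4 of them S-phase and 3 mitotic. Repeat libraries of these almorexant animals set 3 treated rats against 1 vehicle rat, whose spread cannot be known, so only effect sizes are given. The log2 fold change there was 4.10 for Tk1, 2.67 for Kif11 and 2.39 for Mcm5. It was 0.10 for Top2a, 0.06 for Mki67 and -0.61 for Tpx2.

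In the annotation Tk1 starts beside Afmid, a kynurenine formamidase gene that runs the other way, and whether the counting used strand is not given in the sources used here. Afmid rose in 10 comparisons and fell in 4 of 97, and in all 10 of its rises Tk1 rose too. In 1 of the 33 comparisons where Tk1 rose Afmid fell. In 4 of the 33 Tk1 was the only gene of the set that was called. Afmid was chosen for this check after the values of Tk1 were seen.

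The helicase subunits rose less often than Tk1. Mcm2 and Mcm5 rose in 14 comparisons each, Mcm6 in 12, Mcm4 in 10, Mcm3 in 9 and Mcm7 in 4. The only S-phase decreases were 3 of Mcm7 and 1 of Mcm4, and the largest of the Mcm7 decreases was -0.58 ± 0.15 with alpidem. Tyms, thymidylate synthase, rose in 8 comparisons, Pcna in 7 and Rrm2, a subunit of ribonucleotide reductase, in 5 of the 24 in which it had enough counts to be tested. Rrm2 is near the count filter in vehicle rats and so tended to be tested where it was high, with a fold change above 0 in 18 of the 24. Without it the S-phase genes gave 111 increases in 856 tests. Pcna moved little where it rose, by at most 0.88 on the log2 scale (Cmpd Z).

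The balance of rises and falls varied among the mitotic genes, and differences between genes were not tested. Kif11, the motor that pushes the spindle poles apart, rose in 16 comparisons and fell in 5. Cdk1, the mitotic kinase, rose in 8 and fell in 3, but at an unadjusted p under 0.05 in edgeR it was higher in 14 and lower in 22. DESeq2 called Cdk1 11 times in each direction. Nusap1, a spindle protein, rose in 6 and fell in 4. Top2a, which untangles DNA, and Kif20a, a motor of cytokinesis, fell in 12 comparisons each and rose in 6 and 4. Ube2c rose in 3 and fell in 3, the checkpoint kinase Bub1b rose in 3 and fell in 2, and Plk1, the Polo kinase, rose in 3 and fell in 4. Mki67 fell in 10 and rose in 3, and Cdc20, an activator of the anaphase ligase, fell in 9 and rose in 4. Aurkb, the kinase of the chromosomal passenger complex, fell in 9 and rose in 5. Its partners Birc5 and Cdca8 rose in 4 and 5 and fell in none, with 9 and 7 decreases at an unadjusted p under 0.05 in edgeR and 3 and 1 with DESeq2. Ccnb2, cyclin B2, read from the RefSeq table, rose in 4 and fell in 7 of 94 comparisons.

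Within a comparison the S-phase median lay above the mitotic median in 64 of 97 cases. It did so in 23 of the 30 comparisons in which 5 or more genes were called. In the 14 comparisons where at least 3 mitotic genes fell, which is how they were picked, 86 of 240 mitotic tests were decreases, against 4.21% of all tests there. Of 124 S-phase tests there 0 were decreases and 7 increases, 4 of them with hydroxyzine, where 15.1% of all genes rose. Over all genes of the 97 comparisons 4.97% of tests were increases. At an unadjusted p under 0.05 in edgeR the 14 comparisons held 10 S-phase decreases, and DESeq2 called 3. A further 16 S-phase values there, of Rrm2 and Mcm5, had too few counts for the test, and in 7 of these every treated rat lay under every vehicle rat and in 1 over every vehicle rat. In 18 comparisons at least 3 S-phase genes rose, and in 9 of these no more than 1 mitotic gene rose. Many of all genes rose in those 9 too, from 1356 of 12875 with lumiracoxib to 2998 of 12643 with fluoxetine. In the 9 comparisons where at least 3 mitotic genes rose, at least 3 S-phase genes rose in 8. Of all genes there, the rises ran from 67 of 12471 with felbamate to 3177 of 12811 with azithromycin. The difference between the classes was not tested, since the genes of a class are not replicates.

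**Figure D2:**
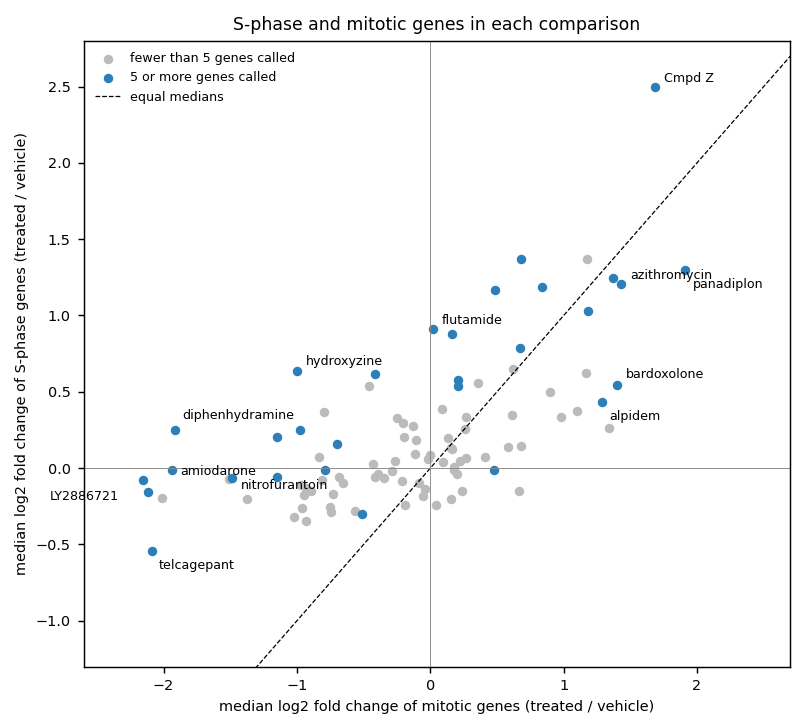
Each point is 1 of the 97 comparisons, with the median log2 fold change of the tested mitotic genes on the x axis and of the tested S-phase genes on the y axis (blue, 5 or more genes called; dashed line, equal medians). Cmpd Z stands highest at 2.50 for the S-phase genes, and the 6 points farthest to the left, LY2886721, perhexiline maleate, telcagepant, flucloxacillin, amiodarone and diphenhydramine, have S-phase medians between -0.54 and 0.25.

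The comparisons described next have the most genes called higher, the most called lower, or the largest distance between the classes in either direction. The distance was ranked among comparisons with 5 or more genes called. Telithromycin, with fewer genes called, had a lower S-phase minus mitotic median (-1.08, log2 scale) than any of them. Panadiplon, an anxiolytic that was stopped for liver injury, was given to male Han Wistar rats at 600 mg/kg for 4 days in methylcellulose. Of 32 genes tested 27 rose and 0 fell, against 7.89% of all genes that rose. All 19 mitotic genes rose, with a median log2 fold change of 1.91, and 8 of 10 S-phase genes, with a median of 1.30. Over all genes of this comparison the median log2 fold change was -0.0011. Of the G1 cyclins 0 of 3 were called, with 1 at an unadjusted p under 0.05 in edgeR and 0 with DESeq2.

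Top2a stood at 39.6, 18.9, 21.9 and 23.9 CPM in the 4 panadiplon rats and at 5.77, 6.23, 4.66 and 4.96 CPM in the 4 vehicle rats. The groups did not overlap, and the first treated rat was highest. The log2 fold change of Top2a was 2.27 ± 0.24 (edgeR adjusted p = 0.00146). Mki67 stood at 27.3 ± 8.30 CPM (SD, n = 4) against 7.24 ± 1.18 CPM, a log2 fold change of 1.91 ± 0.23. Rrm2 had the largest rise in this comparison, from 0.824, 1.1, 0.804 and 1.15 CPM to 7.91, 3.93, 7.63 and 7.47 CPM, 2.79 ± 0.26 on the log2 scale (edgeR adjusted p = 0.000801). Mcm5 rose by 2.43 ± 0.48, Ccna2, cyclin A2, by 2.34 ± 0.35 and Cdk1 by 2.17 ± 0.27, all on the log2 scale. Pcna rose by 0.59 ± 0.16, from 13.7 to 20.6 CPM. Ccnd1 was not called, at 19.3, 4.61, 10.6 and 4.29 CPM in treated and 16.8, 19, 33.4 and 11.1 CPM in vehicle rats, which overlap.

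Genes of the cycle outside the set moved with panadiplon as well. Of 28 other mitosis genes 25 rose and of 20 other replication genes 11 rose. Foxm1, the factor of the late mitotic programme, rose by 2.06 ± 0.26 on the log2 scale, Mybl2 by 1.30 ± 0.34, the replication licensing factor Cdt1 by 1.21 ± 0.30 and the kinetochore protein Cenpf by 1.98 ± 0.26. Beside these, 6 of 8 hepatocyte genes fell with panadiplon, against 703 of all 12580 genes. The summed hepatocyte level was 9.67% to 13.0% of counts in treated and 16.4% to 20.5% in vehicle rats. Summed cholangiocyte markers were higher without overlap, at 18.7 to 28.4 CPM against 9.56 to 17.3 CPM. Erythroid markers were lower, at 135 to 164 CPM against 212 to 523 CPM, with Rhag at 0 counts in every treated and vehicle rat. What part these had in the rise was not tested. RNA integrity was lower in the treated rats, with a mean RIN of 8.3 against 8.75.

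Azithromycin, a macrolide antibiotic, was given to male Sprague Dawley rats at 600 mg/kg for 4 days in methylcellulose. Of 30 genes tested 27 rose and 0 fell, against 24.8% of all genes that rose. The rises were 17 of 18 mitotic genes with a median log2 fold change of 1.43, 8 of 9 S-phase genes with a median of 1.20, and Ccnd1 and Ccne1. Mcm5 stood at 6.67, 5.08, 5.16 and 3.3 CPM in treated and 0.677, 0.263, 0.274 and 0.894 CPM in vehicle rats. The groups were far apart, with a log2 fold change of 3.28 ± 0.38 (edgeR adjusted p = 0.000105). Ccnd1 stood at 188, 118, 65.2 and 39.2 CPM against 24.5, 17.8, 14.5 and 26 CPM, a log2 fold change of 2.31 ± 0.49 (edgeR adjusted p = 0.00659), and the treated rats differed widely among themselves. Aurkb rose by 3.36 ± 0.50, Prc1, which bundles the central spindle, by 3.02 ± 0.63, Top2a by 2.90 ± 0.31, Cdk1 by 2.69 ± 0.37, Mki67 by 2.17 ± 0.28 and Pcna by 0.48 ± 0.09, all on the log2 scale.

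The vehicle rats of the azithromycin study had low mitotic levels. Their group mean was the lowest of 83 vehicle groups for 12 of 19 mitotic genes. With 1 scaling over all animals, their mean Mki67 level of 0.893 CPM was the lowest of the 83 vehicle groups, and so were Top2a at 0.291 CPM and Cdk1 at 0.158 CPM. The azithromycin rats themselves, at 4.01 CPM of Mki67, lay above only 36 of the 83 vehicle groups, and at 2.21 CPM of Top2a above 20. For Mcm5 (4.3 CPM) they lay above all 83, and for Ccnd1 (87.3 CPM) above 82. What sets the low vehicle levels apart was not tested.

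Outside the set, azithromycin raised 15 of 17 other mitosis genes and 9 of 20 other replication genes, and 1 of the latter fell. Mybl2 rose from 0.0353 to 4.26 CPM, Cdt1 by 1.48 ± 0.40 on the log2 scale, and Myc, a growth factor response gene, by 2.14 ± 0.63. Cdkn1a, the inhibitor of cyclin-dependent kinases known as p21, rose by 2.05 ± 0.61. Of 8 hepatocyte genes 6 fell, and their summed level was 5.76% to 6.49% of counts against 14.4% to 16.6% in vehicle rats. Of 7 endothelial genes 6 fell, and of all 12811 genes 2855 fell. Summed cholangiocyte markers were at 36.4 to 47.9 CPM against 12.9 to 25.7 CPM and neutrophil markers at 7.04 to 11.6 CPM against 4.13 to 5.49 CPM, with no overlap. How far they bear on the set was not tested. RIN averaged 8.53 against 8.4.

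Cmpd Z is known here only by that name and was given to male Han Wistar rats at 400 mg/kg for 4 days in methylcellulose. Of 32 genes 19 rose and 0 fell, against 20.9% of all genes that rose. All 10 S-phase genes and all 3 G1 cyclins rose, but 6 of 19 mitotic genes. The S-phase median was 2.50 and the mitotic median 1.68 on the log2 scale. Mcm5 stood at 22.2, 13.6, 8.67 and 5.62 CPM in treated and 0.511, 0.447, 0.591 and 0.601 CPM in vehicle rats, with a log2 fold change of 4.53 ± 0.45 (edgeR adjusted p = 7.2e-05). Ccnd1 stood at 171, 94.6, 117 and 109 CPM against 6.64, 5.67, 5.15 and 4.66 CPM, a log2 fold change of 4.47 ± 0.21 (edgeR adjusted p = 1.12e-06). All treated rats were far above all vehicle rats for both genes. Mcm6 rose by 3.43 ± 0.44, Rrm2 by 2.65 ± 0.64, Mcm3 by 2.64 ± 0.45 and Pcna by 0.88 ± 0.19 on the log2 scale.

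The mitotic genes in Cmpd Z depended on 1 rat. Top2a stood at 9.36, 14.5, 8.9 and 0.3 CPM in the treated rats and 2.34, 1.83, 2.75 and 3.41 CPM in the vehicle rats. Mki67 stood at 16.3, 18.5, 11.7 and 1.16 CPM against 2.73, 2.23, 3.21 and 5.86 CPM. For both, 3 treated rats were above and the fourth below every vehicle rat, and the genes were not called (Top2a 1.68 ± 0.80, edgeR adjusted p = 0.131; Mki67 1.77 ± 0.70, edgeR adjusted p = 0.0780). The same rat was above all vehicle rats for Mcm5 and Ccnd1. Without it, 32 of 32 genes rose.

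Beside the set, 17 of 22 other replication genes and 11 of 26 other mitosis genes rose with Cmpd Z. Cdt1 rose by 3.46 ± 0.38, Myc by 2.64 ± 0.43 and Foxm1 by 1.71 ± 0.33, and Cdkn1a fell from 32.0 to 12.1 CPM (fold changes on the log2 scale). Of 8 hepatocyte genes 5 fell, against 2369 of all 12935 genes. The summed hepatocyte level was 6.45% to 8.55% of counts against 18.5% to 20.9% in vehicle rats. Summed cholangiocyte markers were at 26.0 to 36.0 CPM against 13.4 to 17.0 CPM and neutrophil markers at 12.1 to 15.9 CPM against 5.53 to 11.0 CPM, with no overlap. The part of these cell types was not tested. RIN averaged 7.75 against 7.6.

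**Figure D3:**
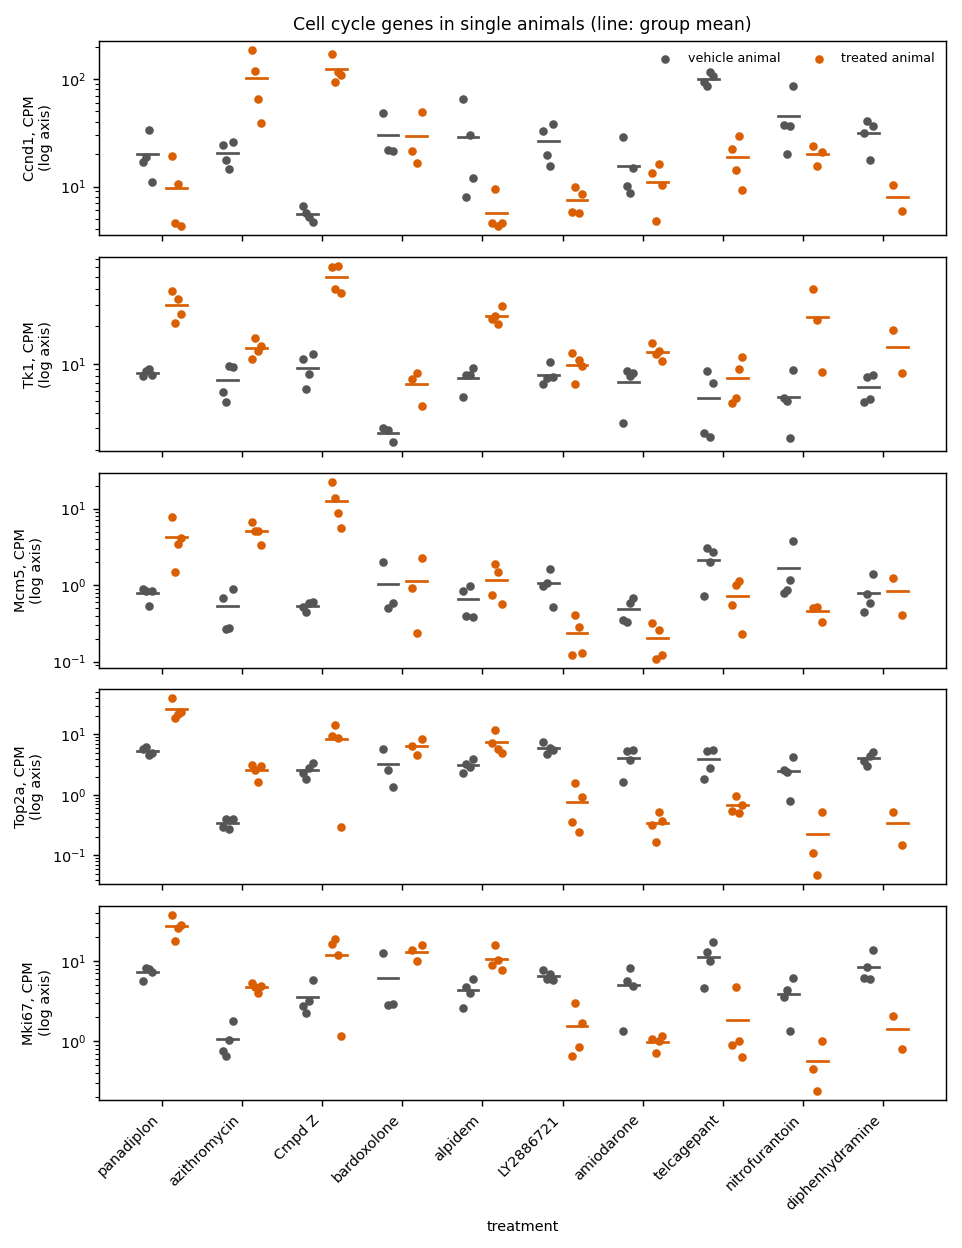
Each point is 1 animal and each line a group mean, in CPM on log axes, for Ccnd1, Tk1, Mcm5, Top2a and Mki67 in 10 comparisons (grey, vehicle; orange, treated). In Cmpd Z 1 treated rat lies at 0.3 CPM of Top2a and 1.16 CPM of Mki67, and the vehicle rats of azithromycin lie at or under 0.406 CPM of Top2a.

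With bardoxolone and alpidem the mitotic median lay above the S-phase median. Both were among the picks for this distance, and the difference between the classes was not tested. Bardoxolone, an activator of NRF2, was given to Han Wistar rats of both sexes at 10 mg/kg for 4 days in sesame oil, with 3 rats a group and sex as a covariate. Of 30 genes 16 rose and 0 fell, against 15% of all genes that rose. The rises were 11 of 18 mitotic genes, 4 of 9 S-phase genes and Ccne2, and the S-phase median lay 0.86 below the mitotic median on the log2 scale. Cdk1 stood at 1.68, 1.63 and 2.29 CPM in treated and 0.655, 0.404 and 0.0492 CPM in vehicle rats, with a log2 fold change of 2.39 ± 0.50 (edgeR adjusted p = 0.0111). Nusap1 rose by 2.03 ± 0.40, Prc1 by 2.03 ± 0.47, Ccne2 by 1.84 ± 0.35, Tpx2, a spindle assembly factor, by 1.54 ± 0.29, Top2a by 1.12 ± 0.31 and Pcna by 0.76 ± 0.11 on the log2 scale. Mki67 (1.38 ± 0.41, edgeR adjusted p = 0.0660), Mcm5 (0.13 ± 0.44) and Ccnd1 (-0.10 ± 0.11) were not called.

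The count for bardoxolone varied with the fit. It was 6 without the sex term, 7 and 8 without treated replicates 1 and 2, and 9 without vehicle replicate 2. The mean RIN was 8.8 in treated and 7.5 in vehicle rats, and once RIN entered the fit 0 of these genes were called (8 higher at an unadjusted p under 0.05 in edgeR). That fit called 16 of all genes. In the main fit 1712 of all 12834 genes fell. Of 10 macrophage genes 6 fell, with a summed level of 450 to 488 CPM against 543 to 648 CPM. Of 8 hepatocyte genes 5 fell, at 7.97% to 8.70% of counts against 10.9% to 15%. Summed endothelial, lymphocyte, neutrophil and erythroid markers were also lower without overlap, with Elane at 0 counts in every treated and vehicle rat. Whether these play a part was not tested. Outside the set, 10 of 25 other mitosis genes and 2 of 16 other replication genes rose with bardoxolone, and Myc rose by 2.71 ± 0.37 on the log2 scale.

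Alpidem, an anxiolytic withdrawn for liver injury, was given to male Han Wistar rats at 600 mg/kg for 4 days in polyethylene glycol and saline. Of 32 genes 15 rose, against 6.85% of all genes, and 1 fell, against 5.21%. The rises were 12 of 19 mitotic genes and 3 of 10 S-phase genes (Rrm2, Tk1, Tyms), and the fall was Mcm7. The medians were 1.29 for the mitotic and 0.43 for the S-phase genes on the log2 scale. Cdk1 stood at 2.9, 5.3, 4.32 and 3.03 CPM in treated and 0.8, 1.26, 1.13 and 1.29 CPM in vehicle rats, with no overlap and a log2 fold change of 1.78 ± 0.26 (edgeR adjusted p = 0.00320). Birc5, survivin, rose by 1.73 ± 0.28, Tk1 by 1.66 ± 0.16, Prc1 by 1.59 ± 0.37, Ube2c, a ubiquitin carrier of the anaphase ligase, by 1.55 ± 0.35, Mki67 by 1.30 ± 0.28 and Top2a by 1.26 ± 0.27. Mcm5 (0.85 ± 0.46), Pcna (0.10 ± 0.12) and Ccnd1 (-2.34 ± 0.73, edgeR adjusted p = 0.0842) were not called.

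Outside the set, 10 of 27 other mitosis genes and 3 of 19 other replication genes rose with alpidem, with Mybl2 at 1.87 ± 0.38 and Foxm1 at 1.09 ± 0.29 on the log2 scale. Of 10 macrophage genes 7 fell, with a summed level of 337 to 447 CPM against 504 to 778 CPM. Of 8 hepatocyte genes 5 fell, at 9.17% to 11.7% of counts against 17.2% to 18.3%. Summed cholangiocyte markers were higher (20.6 to 28.7 CPM against 11.8 to 18.8 CPM) and stellate and lymphocyte markers lower, each without overlap. The part of these cell types was not tested. The mean RIN was 8.15 in treated and 7.43 in vehicle rats, and once RIN entered the fit 0 of the set and 0 of all genes were called with alpidem, with 21 of the set higher at an unadjusted p under 0.05. Without vehicle replicate 3, 7 rose.

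LY2886721, an inhibitor of the beta-secretase BACE1, had more of the set called lower in edgeR than any other treatment. Male Han Wistar rats received 750 mg/kg for 5 days in hydroxypropyl methylcellulose. Of 29 genes 13 fell and 0 rose, against 1.06% of all genes that fell. The falls were 12 of 18 mitotic genes and Ccnd1, and the mitotic median was -2.15 on the log2 scale. Of 8 S-phase genes 0 were called in either direction, with 1 lower at an unadjusted p under 0.05 in edgeR and 0 with DESeq2, and their median was -0.08. The S-phase median lay 2.07 above the mitotic median. The rank of LY2886721 depended on the method. DESeq2 called 15 of the set lower with LY2886721, 16 with flucloxacillin and 15 with perhexiline maleate. For flucloxacillin edgeR called 0 of the set and 0 of all genes.

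Cdk1 stood at 0, 0.293, 0.0406 and 0.218 CPM in the LY2886721 rats and at 1.81, 2.42, 1.36 and 2.75 CPM in the vehicle rats. No treated rat reached a vehicle rat, and the log2 fold change was -3.87 ± 0.59 (edgeR adjusted p = 0.00941). Top2a stood at 0.362, 1.58, 0.243 and 0.914 CPM against 7.57, 4.72, 5.9 and 5.61 CPM, a log2 fold change of -2.96 ± 0.45 (edgeR adjusted p = 0.0133). Ccna2 fell by 3.05, Ube2c by 2.87, Plk1 by 2.79, Mki67 by 2.09 and Ccnd1 by 1.83 on the log2 scale. Pcna did not pass the test, at 11.6, 11.8, 15.4 and 14.1 CPM against 13, 14.1, 14.1 and 13.2 CPM (-0.04 ± 0.12). Mcm5 had too few counts for the test, with treated rats at 0.121 to 0.41 CPM and vehicle rats at 0.515 to 1.63 CPM.

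Outside the set, 10 of 22 other mitosis genes and 0 of 18 other replication genes fell with LY2886721, and Cenpf fell by 4.36 on the log2 scale. The summed hepatocyte level was 12.1% to 14.7% of counts against 14.7% to 17.8%. No hepatocyte, macrophage, endothelial, lymphocyte or stellate gene of the marker lists was called in that comparison, and 2 of 3 erythroid genes fell. The mean RIN was 8.47 against 8.65. Without vehicle replicate 1 or 2 the count of falls was 5, without treated replicate 3 or 4 it was 8, and when RIN entered the fit it was 7.

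Amiodarone, an antiarrhythmic drug, was given to male Han Wistar rats at 600 mg/kg for 4 days in methylcellulose. Of 24 genes 10 fell and 0 rose, against 3.07% of all genes that fell, and all 10 were mitotic, of 14 tested. Of 8 S-phase genes 0 were called, with 2 higher and 0 lower at an unadjusted p under 0.05 in edgeR and 1 higher with DESeq2. Prc1 stood at 0.253, 0.0546, 0.105 and 0 CPM in treated and 1.05, 2.44, 2.36 and 3.41 CPM in vehicle rats, a log2 fold change of -4.42 ± 0.59 (edgeR adjusted p = 0.00231). Top2a stood at 0.317, 0.164, 0.524 and 0.367 CPM against 1.64, 5.42, 3.76 and 5.46 CPM, a log2 fold change of -3.53 ± 0.45 (edgeR adjusted p = 0.00214). In both genes all treated rats were below all vehicle rats. Cdk1 fell by 3.94, Mki67 by 2.34 and Plk1 by 2.20 on the log2 scale, while Ccnd1 (-0.49 ± 0.49) and Pcna (-0.16 ± 0.10) were not called. Outside the set 4 of 12 other mitosis genes fell, Myc rose by 1.49 ± 0.28, and 5 of 8 hepatocyte genes fell, at 12.0% to 13.6% of counts against 15.9% to 18.8% in vehicle rats. Their part was not tested. The mean RIN with amiodarone was 8.45 against 8.35.

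Telcagepant, an antagonist of the CGRP receptor, was given to male Sprague Dawley rats at 400 mg/kg for 4 days in Imwitor 742 and polysorbate 80. Of 28 genes 8 fell and 0 rose, against 2.46% of all genes that fell. The falls were 7 of 16 mitotic genes and Ccnd1. Of 9 S-phase genes 0 were called, with 2 lower at an unadjusted p under 0.05 in edgeR and 1 with DESeq2. Ccnd1 stood at 22.3, 14.2, 29.6 and 9.31 CPM in treated and 94.5, 85.5, 117 and 107 CPM in vehicle rats, a log2 fold change of -2.42 ± 0.34 (edgeR adjusted p = 0.0117). With 1 scaling over all animals, this vehicle group had the highest Ccnd1 level of the 83. Ccnb1, cyclin B1, fell by 3.66, Cdk1 by 3.40, Nusap1 by 2.95 and Top2a by 2.52 on the log2 scale. Mki67 was not called, at 0.905, 4.73, 0.997 and 0.629 CPM against 4.57, 12.9, 10 and 17.3 CPM (edgeR adjusted p = 0.0626). Mcm5 (-1.54 ± 0.57) and Pcna (0.37 ± 0.41) were not called.

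Treated replicate 2 of telcagepant stood apart, with Pcna at 45.8 CPM where the other treated rats had 12.4 to 15.6 CPM. Outside the set, 9 of 18 other mitosis genes fell and Cdkn1a rose from 3.28 to 37.4 CPM. Of the marker lists 1 of 8 hepatocyte genes fell, with a summed level of 5.55% to 9.25% of counts against 10.1% to 11.4%, and summed stellate and lymphocyte markers were lower without overlap. Their part was not tested. The mean RIN was 8.55 against 8.75. The count of falls was 4 without treated replicate 2, 2 without vehicle replicate 2 or 3, 1 without vehicle replicate 4 and 0 when RIN entered the fit (13 lower at an unadjusted p under 0.05 in edgeR).

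Nitrofurantoin, an antibacterial drug, was given to male Sprague Dawley rats at 500 mg/kg for 4 days in methylcellulose, with 3 treated and 4 vehicle rats. Of 30 genes 8 fell, against 5.45% of all genes, and 1 rose, against 7.12%. The falls were 8 of 18 mitotic genes and the rise was Tk1. Top2a stood at 0.112, 0.0476 and 0.522 CPM in treated and 2.63, 2.36, 0.806 and 4.17 CPM in vehicle rats, a log2 fold change of -3.41 ± 0.79 (edgeR adjusted p = 0.0310). Tk1 stood at 40.3, 22.5 and 8.6 CPM against 5.26, 5.02, 2.52 and 8.88 CPM, a log2 fold change of 2.12 ± 0.55 (edgeR adjusted p = 0.0455), and the third treated rat lay within the vehicle range. Mki67 fell by 2.76, Ccnb1 by 2.41 and Cdc20 by 1.83. Cdk1 (-2.11 ± 0.63, edgeR adjusted p = 0.0599), Mcm5 (-1.88 ± 0.65), Ccnd1 (-1.17 ± 0.45) and Pcna (0.26 ± 0.15) were not called.

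Outside the set, Cdkn1a rose from 7.73 to 85.0 CPM with nitrofurantoin, 3.46 ± 0.58 on the log2 scale, and 4 of 16 other mitosis genes fell. Of 8 hepatocyte genes 3 rose, at a summed 11.0% to 14.1% of counts against 12.7% to 15.4%, and 3 of 8 stellate cell genes fell. Summed erythroid and stellate markers were lower without overlap. Cholangiocyte markers, at 18.84 to 21.35 CPM in treated and 15.67 to 18.81 CPM in vehicle rats, barely missed overlap. The part of these markers was not tested. RIN averaged 8.47 against 8.1. The falls numbered 1 without treated replicate 1 or 2, 5 without treated replicate 3, 0 without vehicle replicate 1, 2 or 4, and 0 when RIN entered the fit (8 lower at an unadjusted p under 0.05 in edgeR).

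Diphenhydramine, an antihistamine, was given to male Sprague Dawley rats at 400 mg/kg for 4 days in methylcellulose, with only 2 treated and 4 vehicle rats. Of 30 genes 5 fell and 0 rose, against 1.97% of all genes that fell, and these were Ccnd1, Mki67, Top2a, Kif20a and Prc1. Top2a stood at 0.527 and 0.152 CPM in treated and 3.69, 3.04, 4.36 and 5.09 CPM in vehicle rats, a log2 fold change of -3.61 ± 0.52 (edgeR adjusted p = 0.0232). Mki67 fell by 2.60, Ccnd1 by 1.98, Kif20a by 1.90 and Prc1 by 1.80. Of 9 S-phase genes 0 were called, with 2 higher at an unadjusted p under 0.05 in edgeR and 0 with DESeq2, and the S-phase median lay 2.16 above the mitotic median. Pcna (0.41 ± 0.32), Mcm5 (0.04 ± 0.66) and Cdk1 (-2.05 ± 0.62) were not called. Of the hepatocyte genes 2 of 8 fell, at 5.97% to 6.95% of counts against 10.5% to 13.5%, and Alb fell by 1.49 on the log2 scale. Summed cholangiocyte markers were higher (24.96 to 30.2 CPM against 12.4 to 19.9 CPM) and stellate, endothelial, lymphocyte and erythroid markers lower, each without overlap. Their part was not tested. The mean RIN was 9.34 against 8.7, and 0 of the set and 0 of all genes were called when RIN entered the fit (12 of the set lower at an unadjusted p under 0.05). Leaving out diphenhydramine replicate 2 left 1 fall, leaving out replicate 1 gave 8, and leaving out any vehicle rat left 0.

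**Figure D4:**
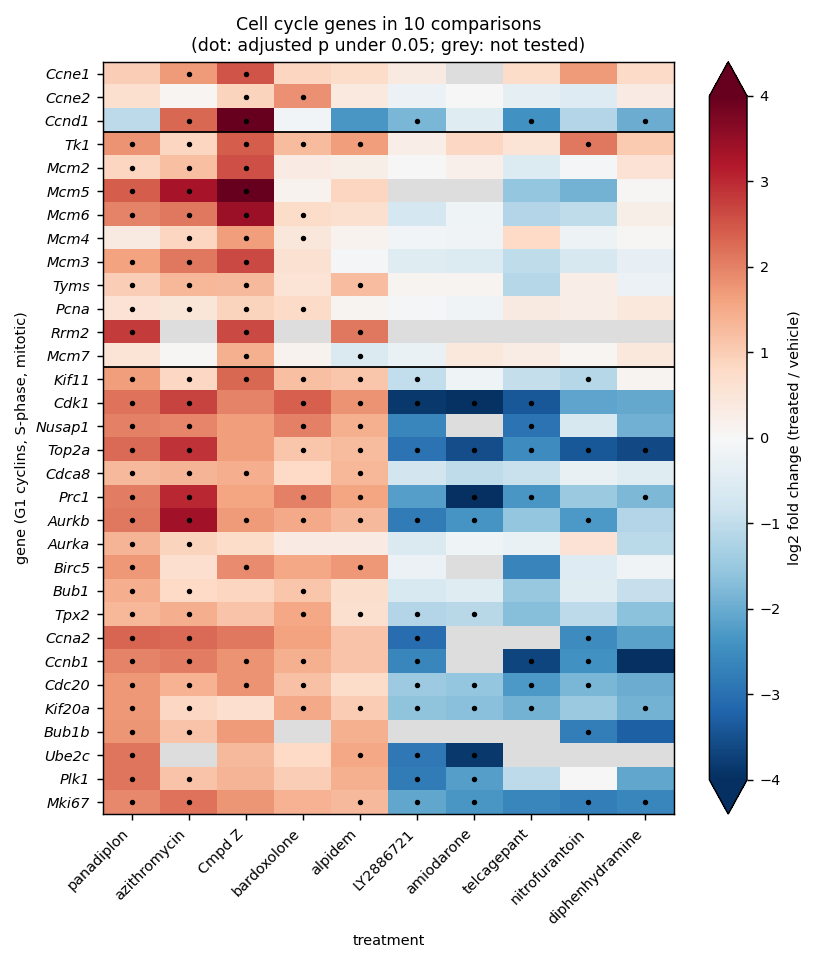
Colour gives the log2 fold change of 32 genes (rows, in the order G1 cyclins, S-phase, mitotic) in 10 comparisons (columns), a dot marks an adjusted p under 0.05 and grey a gene not tested. The 5 columns on the left are red in the tested mitotic rows. The 5 on the right are blue there, except for 1 gene with nitrofurantoin and 1 with diphenhydramine. The S-phase rows on the right hold 1 dot, Tk1 with nitrofurantoin.

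With hydroxyzine some S-phase genes rose and some mitotic genes fell in the same rats. This antihistamine was given to male Han Wistar rats at 600 mg/kg for 4 days in methylcellulose, with 3 treated and 4 vehicle rats. Of 31 genes 5 rose, against 15.1% of all genes, and 6 fell, against 12.5%. The rises were Mcm2, Mcm5, Mcm6, Tk1 and, among the mitotic genes, Kif11. The falls were Mki67, Top2a, Bub1, Kif20a, Nusap1 and Prc1. Tk1 stood at 38.7, 26.4 and 19.9 CPM in treated and 10.2, 8.87, 9.12 and 5.95 CPM in vehicle rats (log2 fold change 1.73 ± 0.25, edgeR adjusted p = 0.00377). Top2a stood at 0.191, 1.02 and 0.69 CPM against 2.29, 2.44, 3.63 and 2.19 CPM (-2.09 ± 0.46, edgeR adjusted p = 0.0146). For both genes the groups did not overlap. The share of rises was close to that of all genes, and the class difference was not tested. Alb fell by 1.39 on the log2 scale, RIN averaged 8.60 against 8.31, and their part was not tested. Hydroxyzine and flutamide were singled out after their values were seen.

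Flutamide, an antiandrogen, was given to male Han Wistar rats at 600 mg/kg for 4 days. Of 30 genes 7 rose and 0 fell, a share close to the 23.4% of all genes that rose. The rises were Ccne1 and 6 of 9 S-phase genes, with Tk1 at 61.7, 96.9, 28.8 and 34.8 CPM in treated and 8.75, 7.78, 6.52 and 9.12 CPM in vehicle rats (2.78 ± 0.40, edgeR adjusted p = 0.000931). Mcm7 stood at 12.8, 14.7, 15.4 and 15.7 CPM against 8.06, 6.29, 7.71 and 9.12 CPM (0.91 ± 0.13), with no overlap. Of 18 mitotic genes 0 were called, with 1 higher at an unadjusted p under 0.05 in edgeR and 0 with DESeq2. Top2a overlapped, at 0.625, 1.53, 0.646 and 3.78 CPM in treated and 4.66, 2.53, 2.13 and 3.79 CPM in vehicle rats. The difference between the classes was not tested. Beside these calls the hepatocyte gene Alb fell by 0.96 and the Kupffer cell gene Clec4f by 0.99 on the log2 scale, and RIN averaged 8.93 against 8.28. Their part was not tested.

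Classic inducers of liver enlargement were also among the treatments. Phenobarbital, which activates the receptor CAR, was given at 100 mg/kg for 7 days to Han Wistar and for 17 days to Sprague Dawley rats. In Han Wistar rats 0 of 32 genes were called in edgeR, with 5 lower at an unadjusted p under 0.05 and 2 lower with DESeq2. Of all genes 0% were called there. In Sprague Dawley rats 0 of 26 were called, against 1.23% of all genes, with 1 higher at an unadjusted p under 0.05 and 0 with DESeq2. Mki67 stood at 11.1 ± 4.89 CPM (SD, n = 5) with phenobarbital and 11.8 ± 5.10 CPM (SD, n = 5) in Han Wistar vehicle rats. Between the strains the effects differed in 0 of 32 genes, against 0.0888% of all genes, with 1 at an unadjusted p under 0.05 and 0 with DESeq2. The difference for Mki67 was -1.07 on the log2 scale, with a 95% interval from -2.49 to 0.36, and strain, duration and study cannot be told apart.

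Troglitazone, an agonist of PPAR-gamma, was given for 7 days at 600 mg/kg, and 0 of 30 genes were called, against 0% of all genes, with 9 higher at an unadjusted p under 0.05 and 0 with DESeq2. Its mitotic median was 0.90 on the log2 scale, with Mki67 at 7.79 ± 4.41 CPM (SD, n = 4) against 3.63 ± 0.50 CPM (1.11 ± 0.42, edgeR adjusted p = 0.438). For PCN, which activates the receptor PXR, 4 genes had enough counts to be tested, and 0 were called, against 6.13% of all genes, at an unadjusted p under 0.05 or with DESeq2 either. At this depth a change of the other genes with PCN was not detectable.

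Clofibrate, an agonist of PPAR-alpha, was given to male Sprague Dawley rats at 600 mg/kg for 4 days. Of 29 genes 4 rose, against 8.71% of all genes, and 2 fell, against 6.31%. Tyms, Birc5, Tk1 and Kif11 rose and Ccnd1 and Mcm7 fell. Tyms stood at 5.53, 4.26, 5.39 and 5.32 CPM in treated and 2.7, 2.39, 1.69 and 2.15 CPM in vehicle rats (1.19 ± 0.19, edgeR adjusted p = 0.00492), with no overlap. Ccnd1 stood at 16.5, 13.8, 17.3 and 9.58 CPM against 28.8, 33, 48.6 and 18.5 CPM (-1.17 ± 0.30, edgeR adjusted p = 0.0353). Beside clofibrate's calls, 8 of 10 macrophage genes and 5 of 8 hepatocyte genes fell, and their part was not tested.

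TCDD, a dioxin that activates the aryl hydrocarbon receptor, was given to male Han Wistar rats at 0.00015 mg/kg for 4 days in corn oil with acetone. Of 32 genes 4 fell and 0 rose, and the share of falls was close to the 12.1% of all genes that fell. The 4 were mitotic (Ccnb1, Cdc20, Plk1, Ube2c), and the class difference was not tested. Plk1 stood at 0.17, 0.517, 0.437 and 0.226 CPM in treated and 0.585, 1.57, 1.82 and 0.725 CPM in vehicle rats (-1.73 ± 0.48, edgeR adjusted p = 0.0269). The TCDD vehicle group had the highest Mki67 (28.6 CPM) and Top2a (14.8 CPM) of the 83 vehicle groups with 1 scaling over all animals. The TCDD rats, at 17.5 CPM of Mki67, still lay above 82 of these groups. The mean RIN with TCDD was 9.2 against 7.88. Cdkn1a fell from 9.39 to 0.872 CPM and Myc from 7.48 to 2.65 CPM. Pyrazole, an inhibitor of alcohol dehydrogenase, raised 7 of 25 genes, against 6.49% of all genes, among them 4 S-phase genes, and 1 gene was called without the sex term.

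Related antibiotics were compared within 1 fit at matched dose and time, 600 mg/kg for 4 days. Azithromycin and telithromycin, both macrolide-type antibiotics, were given to Sprague Dawley rats in different studies, so each effect was taken against its own vehicle group. Telithromycin raised 2 of 31 genes, Tk1 and Tyms, against 3.92% of all genes. At an unadjusted p under 0.05 in edgeR 14 were higher, 11 of them mitotic, and DESeq2 called 9 higher, 6 of them mitotic. The mitotic median with telithromycin was 1.34 on the log2 scale. The effect of azithromycin was higher than that of telithromycin for 6 of 32 genes, against 11.3% of all genes. These were Ccnd1 by 3.00 ± 0.65 (95% interval 1.62 to 4.38), Ccne1 by 2.60 ± 0.73, Mcm5 by 2.60 ± 0.57, Mcm3, Mcm6 by 1.15 ± 0.37 and Mcm2 by 0.94 ± 0.21 on the log2 scale. For Mki67 the difference was 0.83 with a 95% interval from -0.90 to 2.56, and for Top2a 1.01 from -0.71 to 2.74.

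Clarithromycin and erythromycin shared a study and a vehicle group of Han Wistar rats. Clarithromycin raised 1 of 32 genes, Tk1 (1.06 ± 0.22), against 10.1% of all genes. Between these macrolides 0 of 31 genes differed, against 14% of all genes, with 2 at an unadjusted p under 0.05 and 1, Tk1, with DESeq2. The difference for Mki67 was -0.64 with a 95% interval from -1.29 to 0.0053 (edgeR adjusted p = 0.175). Between the cephalosporins cefuroxime and cefprozil 0 of 29 genes differed, against 0% of all genes, with 1 at an unadjusted p under 0.05 and 0 with DESeq2, and the interval for Mki67 ran from -0.22 to 1.72. MK-3207, an antagonist of the CGRP receptor, was given at 600 and 750 mg/kg, and 0 of 30 genes differed between the doses, against 0% of all genes, with 3 at an unadjusted p under 0.05 and 0 with DESeq2. The interval for Mki67 ran from -0.16 to 0.80. In these 5 contrasts p-values were adjusted over all genes within each.

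Vehicle rats of the strains differed mainly in Ccnd1. Each study of male rats dosed for 4 days with 0.5% methylcellulose gave 1 value, and 24 studies used Han Wistar and 32 Sprague Dawley rats. Ccnd1 had a median of 15.4 CPM (range 5.09 to 31.6) in Han Wistar and 39.5 CPM (range 17.5 to 82.8) in Sprague Dawley studies. The difference was -1.34 ± 0.14 on the log2 scale (limma adjusted p = 1.92e-12). Of 31 genes tested 3 were higher in Han Wistar rats (Tk1, Top2a, Aurka), against 27.6% of all genes, and 6 lower (Ccnd1, Mcm2, Mcm3, Mcm5, Mcm6, Mcm7), against 25.1%. Apart from Ccnd1 these differences, on log2(CPM + 2), were at most 0.31 in size, that of Mcm7. With a pseudocount of 0.5 they were larger, 0.48 for Top2a and -0.36 for both Mcm5 and Mcm7. In the studies of batch 3 alone Mcm2 and Mcm6 were not called, Cdk1 and Nusap1 were called higher, and Top2a differed by 0.44. Mki67 was not called (0.03 ± 0.12), with medians of 3.93 and 4.38 CPM.

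Levels in vehicle groups varied most for Rrm2, Top2a and Mki67. With 1 scaling over all animals, the group means of Mki67 ran from 0.893 to 28.6 CPM over the 83 vehicle groups, of Top2a from 0.291 to 14.8 CPM and of Cdk1 from 0.158 to 3.69 CPM. Rrm2 ran from 0.0319 to 2.46 CPM, so its lowest groups hold few counts. Pcna ran from 10.7 to 17.9 CPM, the mitotic kinase Aurka from 1.28 to 3.40 CPM and Tk1 from 3.18 to 13.3 CPM. Of the 97 treated groups, 29 lay above the whole vehicle range for Tk1, 14 for Pcna, 8 for Mcm5, 2 for Top2a and 0 for Mki67. Genes of both classes varied, with 11 above for Kif11, 7 each for Aurka and Prc1, 5 for Cdk1, 4 for Mcm7 and 2 for Rrm2. Treated groups below the range numbered 0 for Tk1, 8 for Mcm5, 2 for Top2a, 2 for Mki67, 5 for Cdk1, 0 for Kif11 and 15 for Bub1b. The same counts were not made over all genes. These counts were added after the values were seen, and studies also differ in batch, vehicle and duration. Some vehicle groups share rats.

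**Figure D5:**
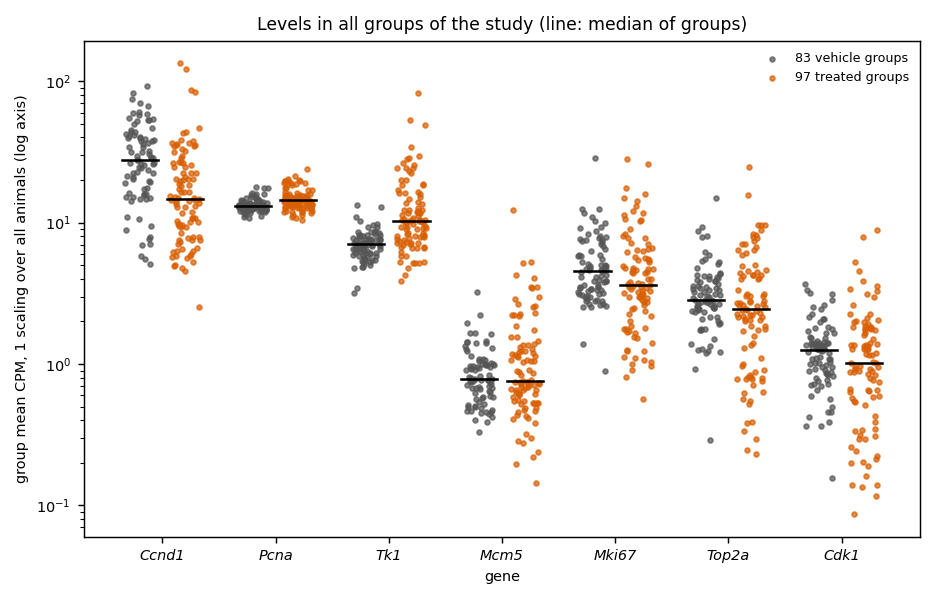
Each point is the mean CPM of 1 group on a log axis, with 83 vehicle groups in grey, 97 treated groups in orange and the median of the groups as a line, for 7 genes. For Tk1 29 treated groups lie above the highest vehicle group, while for Mki67 none does.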

How the data were processed

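Gene values of rat liver RNA came from tables the authors deposited: expected counts per gene, judged from their values (87.49% of non-zero values whole, not normalised), and FPKM. The genome build was Rnor_6.0, per the submitters' processing notes, and the aligner and counter are not given in the sources used here. Libraries of 1 animal within a group were summed and rounded, and n counts animals. RNA came from frozen liver and libraries from a stranded mRNA kit, per the labels' protocols.

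Each comparison was fitted in edgeR 4.0.16 (R 4.3.3) with filterByExpr, TMM scaling, robust dispersions and the 2-sided quasi-likelihood F test, Benjamini-Hochberg adjusted over all genes tested, threshold 0.05. Sex was a covariate where both sexes were present. Contrasts were fitted in edgeR, with 95% intervals from the t distribution on the test's degrees of freedom. The strain test used limma 3.58.1 on log2(CPM + 2). Alternatives were RLE factors, DESeq2 1.42.0, no filter, the RefSeq table, RIN as a covariate and each animal left out. The scripts were tested on simulated data. Deposited FPKM were read for 1 library of each vehicle group, although all vehicle libraries had been planned. The labels name separate animals within a comparison, while some vehicle rats recur in groups of different batches.

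Genes were named by a rule. It took 10 comparisons with the most calls or the largest class difference. The class difference was ranked in each direction among comparisons with 5 or more genes called. In each, the genes named were Mki67, Top2a, Cdk1, Ccnd1, Pcna, Mcm5 and the 5 largest called changes with at least 1 CPM. The members, lists and rules were chosen with earlier results of these data known.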

Additional observations from a re-analysis of the deposited data

Results flagged for a closer look

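Of 137 groups of 4 or more animals of the named genes, 10 held an animal that stood apart from the rest, judged by its gap to the nearest other relative to the group's range. Chance alone is expected to flag about 5% of groups. In the telcagepant rats the highest Pcna was 45.8 CPM against 12.4 to 15.6 CPM in the others, and the highest Mki67 4.73 CPM against 0.629 to 0.997 CPM, both in treated replicate 2. In the alpidem rats the highest Ccnd1 was 9.39 CPM against 4.27 to 4.61 CPM, and the highest Prc1 8.49 CPM against 3.3 to 3.91 CPM. In the alpidem vehicle rats the lowest Ube2c was 0.337 CPM against 0.569 to 0.595 CPM. In the panadiplon rats the lowest Rrm2 was 3.93 CPM against 7.47 to 7.91 CPM, and in their vehicle rats the lowest Mcm5 was 0.536 CPM against 0.844 to 0.883 CPM. In the vehicle rats of LY2886721 the lowest Ccna2 was 1.18 CPM against 1.95 to 2.04 CPM, and the highest Ube2c 1.55 CPM against 0.954 to 0.988 CPM. In the vehicle rats of nitrofurantoin the highest Mcm5 was 3.78 CPM against 0.779 to 1.18 CPM.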

How the results depend on the processing

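The mean RIN was higher in treated than in vehicle rats in 71 of the 97 comparisons. With RIN as a covariate the S-phase genes rose 67 times (116 without it) and fell 1 time (4). The mitotic genes then rose 59 times (95) and fell 35 times (98), and the G1 cyclins fell 5 times (17). In single comparisons the count became 7 for LY2886721 (13) and 0 for bardoxolone (16), alpidem (15), telcagepant (8), nitrofurantoin (8) and diphenhydramine (5), and the S-phase minus mitotic median became -2.42 for bardoxolone (-0.86) and -1.85 for alpidem (-0.86). DESeq2 gave 10 S-phase decreases, 148 mitotic increases, 181 mitotic decreases, 29 decreases of G1 cyclins, 14 falls for telcagepant, 11 for diphenhydramine, and 1 gene between clarithromycin and erythromycin (0). The RefSeq table gave 11 S-phase decreases. Without a filter the G1 cyclins fell 11 times and nitrofurantoin had 5 falls. RLE factors gave 3 falls for diphenhydramine. Without the sex term 6 genes rose with bardoxolone and 1 with pyrazole (7). The causes were not tested.

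Leaving out 1 animal, the count ran from 24 to 27 for panadiplon and azithromycin, 15 to 32 for Cmpd Z, 7 to 12 for bardoxolone, 7 to 14 for alpidem, 5 to 15 for LY2886721, 8 to 14 for amiodarone, 1 to 10 for telcagepant, 0 to 8 for nitrofurantoin and 0 to 8 for diphenhydramine. The class difference ran from -1.20 to -0.51 for bardoxolone, -0.996 to -0.58 for alpidem, 1.79 to 2.28 for diphenhydramine and 1.60 to 2.40 for LY2886721. Of 62 called values of named genes, 98 of 464 refits without 1 animal and 39 of 317 refits under another setting lost the call, and 0 changed direction. The S-phase median lay above the mitotic median in 64 to 66 comparisons under these settings. Low counts limit the precision of Bub1b, Rrm2 and Ube2c. No paired analysis was possible because replicate numbers were given in accession order and treated and vehicle rats are different animals.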
